A study of Mus musculus with 6 samples.

Results

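MicroRNAs of the miR-143 and miR-145 group and of the miR-199 and miR-214 group, which are best known from smooth muscle, fibroblasts and other mesenchymal cells, were followed in vesicle-labelled small RNA of a mouse pigment cell line. The members were chosen by name, with earlier results of these data known. A row belonged if it had a mouse name and that name, without its arm and end-variant suffix, was miR-143, miR-145a, miR-199a, miR-199b or miR-214. 8 of the 1560 rows in the deposited table met this rule, and each of the 8 was the only row of its arm. 7 of them passed the filter on low counts and were tested, and the eighth, miR-143-5p, did not. No member row had a substitution against its microRNA in its name, and none of the 1054 rows without a mouse name carried one of these names.

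In 3 libraries the source was melan-alpha cells, an immortalised line of mouse skin melanocytes, transduced with a lentivirus that delivers mouse MITF (genotype label Mitf_OE). The controls were 3 libraries of melan-alpha cells with the genotype label Mitf_control, and no label says whether these received a virus. All cells grew in RPMI medium with 10% FBS, and all libraries are labelled as extracellular vesicle, although the labelled extraction step speaks of cells. A mouse name does not show that a read came from the cells. Whether reads of mouse-named rows came from the serum was not tested. Nothing in the labels ties a replicate to a culture of its own, so p-values cover the spread among these libraries, which may be technical. In bulk libraries like these, more vesicles of one source and more of a microRNA per vesicle cannot be told apart.

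A microRNA is cut from a hairpin precursor, whose 5p and 3p arms can each guide the silencing of mRNAs that match the seed, the bases near its 5′ end. MiR-143 and miR-145 are made from one transcript, which is driven by serum response factor and myocardin in smooth muscle, and miR-145 has been reported to lower pigmentation genes in mouse melanocytes. MiR-199a and miR-214 are made from the long non-coding RNA Dnm3os, which is activated by TWIST1 in mesenchyme. In human melanoma, miR-214 has been tied to spread through the transcription factor TFAP2C.

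Sequences of the 4 rows from the miR-199 and miR-214 genes are shown because shared seeds and near-identical letters decide how these rows can be read. They are as the authors deposited them, 5′ to 3′, with the seed (bases 2 to 8) in capitals.
miR-199a-5p: cCCAGTGTtcagactacctgttc
miR-199b-5p: cCCAGTGTttagactacctgttc
miR-199b-3p: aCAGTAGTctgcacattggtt
miR-214-3p: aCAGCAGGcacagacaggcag
MiR-199a-5p and miR-199b-5p share a seed and differ by 1 base, C10T counted from the 5′ end, with the base of miR-199a-5p first. The seed of miR-199b-3p differs from that of miR-214-3p at 2 bases, T5C and T8G, counted in the same way with the base of miR-199b-3p first. None of the other rows of the table had the seed of any member, apart from the miR-199 pair.

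The letters of miR-199a-5p match both Mir199a-2 on chromosome 1, 162217844 to 162217866 on the plus strand, and Mir199a-1 on chromosome 9, 21496537 to 21496559 on the minus strand (RefSeq, GRCm38.p6). MiR-199b-5p matches only Mir199b among these precursors, on chromosome 2, 32318485 to 32318507 on the plus strand. The row named miR-199b-3p matches all 3 precursors, so it measures the 3p arm of miR-199a and miR-199b together, and no separate miR-199a-3p row was among the 8. MiR-214-3p lies on chromosome 1, 162223438 to 162223458. Its hairpin and that of Mir199a-2 overlap exons of Dnm3os, 5444 bases apart, and Dnm3os runs opposite to and inside Dnm3, which encodes a dynamin (GENCODE M21). Mir199a-1 and Mir199b lie in Dnm2 and Dnm1 outside their exons, on the strand opposite to these dynamin genes. Neither GGAG nor CCCT, short motifs reported for loading into vesicles, occurs in any of the 8 member rows read on the microRNA strand, while 14.0% and 4.55% of all rows hold them. The deposited miR-145a-5p row lacks 4 bases at its 3′ end, so that end of the microRNA was not searched. The absence of the motifs therefore cannot be carried over to full-length miR-145a-5p.

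The Dnm3os promoter is shown because Mir199a-2 and Mir214 share this host and MITF binds E-boxes. The stretch runs from 250 bases before to 50 bases from the start of the gene, chr1:162217373-162217672 on the plus strand (RefSeq, GRCm38.p6), with each CANNTG in capitals.
Dnm3os promoter: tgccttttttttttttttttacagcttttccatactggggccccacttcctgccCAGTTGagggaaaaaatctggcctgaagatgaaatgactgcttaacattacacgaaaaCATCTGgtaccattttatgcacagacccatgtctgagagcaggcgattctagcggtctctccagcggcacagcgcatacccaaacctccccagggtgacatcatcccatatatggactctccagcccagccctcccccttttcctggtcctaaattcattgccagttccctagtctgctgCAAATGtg
It holds 3 matches to CANNTG, a motif that reads alike on both strands and that 72.3% of the 32851 RefSeq promoter windows of this length hold. The letters CACGTG and CATGTG, the E-box forms preferred by MITF, are not in this window on either strand, and 7.15% and 14.2% of all windows hold them. Both are special cases of CANNTG.

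The libraries held 279142 to 448969 tabulated reads with MITF overexpression and 342941 to 475977 in controls. Rounded reads were tested with edgeR's quasi-likelihood test over 441 rows, and levels are CPM, read counts brought to one library total with TMM factors. Differences are log2 fold changes ± SE, positive where MITF overexpression was higher. The melanocyte microRNAs miR-211 and miR-204 summed to 4565 to 5946 CPM with MITF overexpression and 1976 to 2771 CPM in controls. MITF overexpression replicate 1 stood apart in microRNAs of liver and endothelium. MiR-122-5p, the main liver microRNA, was at 102960 CPM there, at 30121 and 22727 CPM in the other MITF overexpression libraries and at 9906, 8848 and 16385 CPM in controls. All MITF overexpression libraries lay above all controls in miR-122-5p, which was called higher. Its log2 fold change was 2.15 (adjusted p = 0.0236 by edgeR). Endothelial miR-126a-3p was at 7771, 1540 and 2084 CPM with MITF overexpression and at 1779, 1661 and 1757 CPM in controls. Control replicate 3 stood apart in muscle microRNAs, with a sum of 1486 CPM, against 35.1 to 75.4 CPM in the MITF overexpression libraries and 62.1 and 52.1 CPM in the other controls.

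MiR-214-3p, miR-145a-5p and miR-199a-5p rose with MITF overexpression, and no member fell, with 0 negative member rows at an unadjusted p under 0.05 and 0 called lower in any fit, DESeq2 and limma included. These 3 calls among 7 tested member rows stand beside 9.98% of all 441 tested rows called higher at an adjusted p under 0.05 and 5.22% called lower. Since the members were chosen with earlier results of these data known, these shares are a description and no test of the group. The filter on low counts asked for a minimum count of 10, scaled to library size, in 3 libraries. MiR-145a-5p and miR-199a-5p would not have passed it by their control reads alone, so they were tested through the group where they are high. The counts and the median that follow include these rows. 6 of the 7 had a log2 fold change above 0, and the median was 0.96, against 0.078 over all tested rows. All libraries of one group lay above all of the other in 5 of the 7, each time with MITF overexpression higher, and 25.2% of all tested rows were higher without overlap. The number of calls moved with single libraries. 0 of the 3 passed edgeR's test without control replicate 2 or without MITF overexpression replicate 3, where 11 and 0 rows of any kind passed, and only miR-214-3p passed without MITF overexpression replicate 1 or replicate 2. At an unadjusted p under 0.05, edgeR had 4 of the 7 member rows and 139 of all 500 rows tested without control replicate 2. Without MITF overexpression replicate 3 it had 4 of the 7 and 135 of all 495 rows tested.

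**Figure D1:**
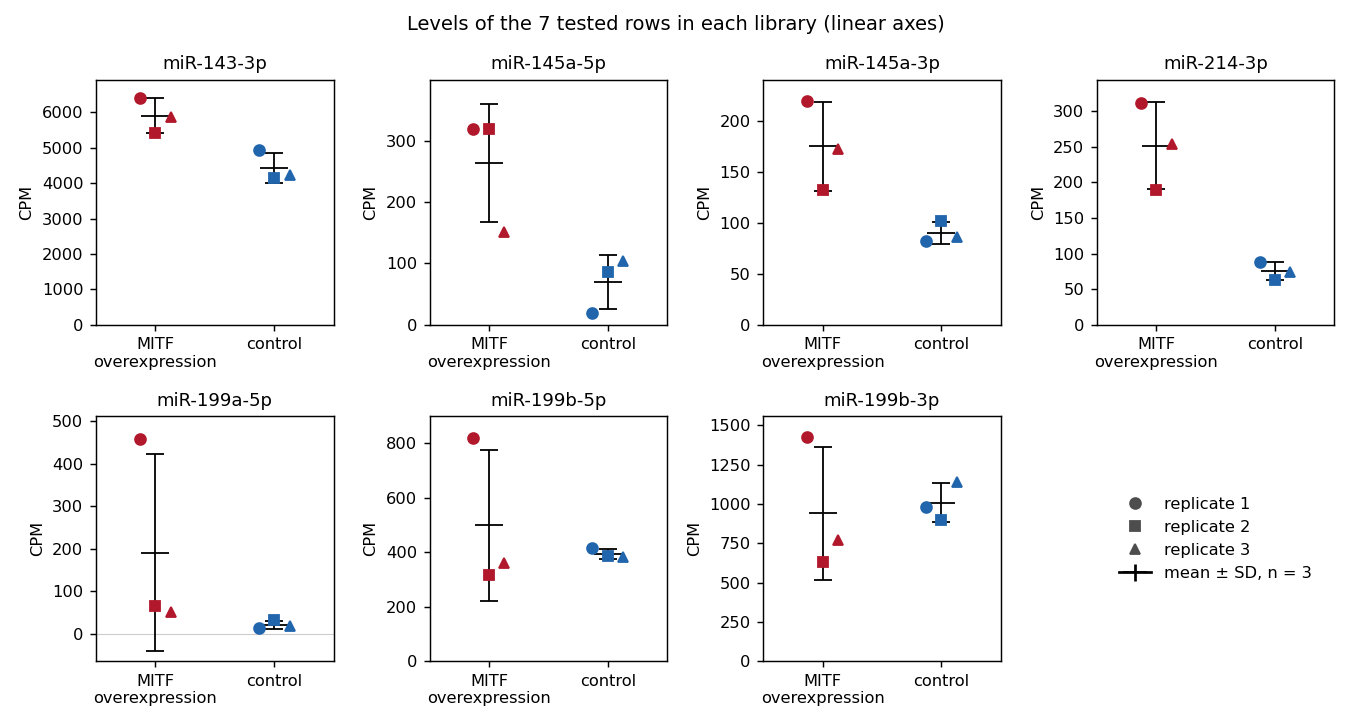
CPM of the 7 tested member rows (one panel each, linear y axis) in the MITF overexpression libraries (red, left) and the control libraries (blue, right), with the mean and SD of 3 libraries in black and a marker shape per replicate number. The groups do not overlap for miR-143-3p, both arms of miR-145a, miR-214-3p and miR-199a-5p, and replicate 1 is the highest MITF overexpression library in all 7 panels.

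**Figure D2:**
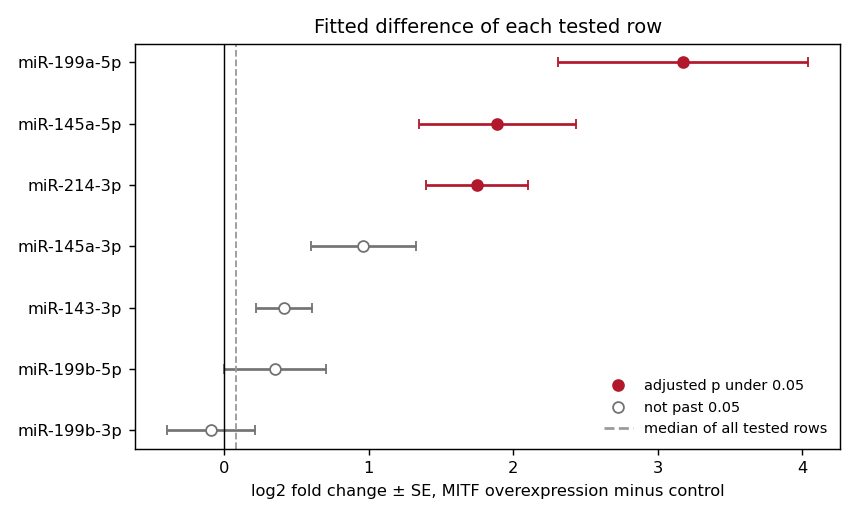
Log2 fold change with its SE (x axis, MITF overexpression minus control, edgeR) for the 7 tested member rows (y axis), filled red where the adjusted p is under 0.05. The 3 called rows lie between 1.75 and 3.18, and miR-199b-3p lies just below 0 at -0.093.

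Mir143 and Mir145a lie 1301 bases apart on the minus strand of chromosome 18, outside the neighbouring gene Carmn as annotated in GENCODE M21, and their letters are not printed here. MiR-143-3p, the main product of its precursor in smooth muscle, had the highest level of the members. It was at 6410, 5431 and 5879 CPM with MITF overexpression and at 4927, 4145 and 4236 CPM in controls. All MITF overexpression libraries lay above all controls, by a small margin between the nearest libraries. At 0.41 ± 0.19, a fitted 1.33-fold, the log2 fold change missed the threshold (adjusted p = 0.155 by edgeR). With total-count scaling, which moved the median log2 fold change of all rows up by 0.16, it was 0.58 and passed with an adjusted p of 0.0480. By mean CPM this row ranked 31 with MITF overexpression and 40 in controls among the 506 mouse-named rows.

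Of the opposite arm, miR-143-5p, replicate 1 of MITF overexpression held 27 reads and each of the other 5 libraries held 0. The 27 reads were 0.954% of the reads of both miR-143 arms in that library, with a 95% Wilson interval of 0.656 to 1.38%. A count of 0 allows up to 3 reads, or 10.2 and 8.77 CPM in MITF overexpression replicates 2 and 3 and 9.81, 7.82 and 6.77 CPM in controls, against 61.7 CPM in replicate 1. These limits and intervals cover counting error only, since reads without molecular identifiers are not independent molecules.

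MiR-145a-5p, the arm of miR-145a that is tied to smooth muscle differentiation, was at 320, 319 and 152 CPM with MITF overexpression and at 19.6, 86.0 and 104 CPM in controls. These levels rest on 140, 94 and 52 reads with MITF overexpression and 6, 33 and 46 reads in controls. Control replicate 1 was far below the other controls, and the gap between the groups was narrow, with MITF overexpression replicate 3 next to control replicate 3. The row is deposited with 4 bases missing at its 3′ end. Its log2 fold change was 1.89 ± 0.54, a fitted 3.70-fold, with an adjusted p of 0.0416 by edgeR. Without control replicate 2 the log2 fold change was 2.05 (adjusted p = 0.0948). Without MITF overexpression replicate 1, 2 or 3 it was 1.70, 1.76 and 2.16 (adjusted p = 0.0815, 0.123 and 0.0899). With scaling factors computed without the top row of the table it was 1.79 (adjusted p = 0.0567).

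The opposite arm, miR-145a-3p, for which few targets are established, was at 219, 132 and 172 CPM with MITF overexpression and at 81.7, 102 and 85.8 CPM in controls. All MITF overexpression libraries were above all controls. Its log2 fold change of 0.96 ± 0.36 missed the threshold (adjusted p = 0.0889 by edgeR).

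The arms of miR-145a were compared within each library, which needs no scaling. MiR-145a-5p made up 59.3% (95% Wilson interval 53.0 to 65.4%), 70.7% (62.4 to 77.7%) and 46.8% (37.8 to 56.1%) of miR-145a reads with MITF overexpression. In controls it made up 19.4% (9.19 to 36.3%), 45.8% (34.8 to 57.3%) and 54.8% (44.1 to 65.0%). The groups overlapped, and control replicate 1 was the lowest library. The log2 ratio of 3p to 5p reads was -0.54 ± 0.72 with MITF overexpression and 0.65 ± 1.18 in controls (SD, n = 3 each). The difference of -1.19 gave a two-sided exact permutation p of 0.2, where 3 against 3 libraries allow no p below 0.1, and it was -0.52 without control replicate 1.

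MiR-143-3p had 11.9, 12.0 and 18.1 reads per read of both miR-145a arms with MITF overexpression, and 48.6, 22.1 and 22.3 in controls. All MITF overexpression libraries lay below all controls in this ratio, which was given no test. Summed over its 4 rows, the miR-143 and miR-145a level was 6366 ± 582 CPM with MITF overexpression and 4596 ± 378 CPM in controls (SD, n = 3 each), and nearly all of it was miR-143-3p.

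MiR-214-3p, the arm of miR-214 that is usually the more abundant, was at 311, 190 and 254 CPM with MITF overexpression and at 88.3, 62.6 and 74.5 CPM in controls. It rested on 136, 56 and 87 reads with MITF overexpression and 27, 24 and 33 reads in controls. Every MITF overexpression library was well above every control, with no library far from its group. A log2 fold change of 1.75 ± 0.35 was fitted, or 3.36-fold, with an adjusted p of 0.0211 by edgeR. The call was lost without control replicate 2, at an adjusted p of 0.0713, and without MITF overexpression replicate 3, at 0.0690, while the log2 fold change was 1.66 and 1.73. It was also lost with replicate number added to the edgeR model, at 1.73 (adjusted p = 0.0714).

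MiR-199a-5p, made from the same host as miR-214 and from a second gene, was at 457, 64.4 and 49.7 CPM with MITF overexpression and at 13.1, 31.3 and 18.1 CPM in controls. Replicate 1 alone held 200 of its rounded reads, against 19 and 17 in the other MITF overexpression libraries and 4, 12 and 8 in controls. The groups did not overlap, but MITF overexpression replicates 2 and 3 were much nearer to the controls than to replicate 1. Over all libraries the log2 fold change was 3.18 ± 0.87, a fitted 9.04-fold, with an adjusted p of 0.0338 by edgeR. Without replicate 1 it was 1.41 with an adjusted p of 0.355. Leaving out MITF overexpression replicate 2 or 3 gave 3.57 and 3.60 (adjusted p = 0.0642 and 0.0754), and leaving out control replicate 1, 2 or 3 gave 2.94, 3.56 and 3.07 (adjusted p = 0.0696, 0.0810 and 0.0725). Limma on the authors' normalized values gave 2.42 with an adjusted p of 0.0527. Adding replicate number to the edgeR model also gave 2.42, with an adjusted p of 0.135. The liver and endothelial microRNAs that stood apart in replicate 1 are given above, and their part in this result was not tested.

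MiR-199b-5p, with the same seed as miR-199a-5p, was at 818, 319 and 363 CPM with MITF overexpression and at 415, 386 and 382 CPM in controls. Replicate 1 was again the highest library, and MITF overexpression replicates 2 and 3 lay below all controls. Its log2 fold change of 0.35 ± 0.35 missed the threshold (adjusted p = 0.539 by edgeR), and without replicate 1 it was -0.23 (adjusted p = 0.657).

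The shared 3p arm, the row named miR-199b-3p, was at 1424, 634 and 769 CPM with MITF overexpression and at 981, 899 and 1143 CPM in controls. This arm is known to repress the kinase mTOR and the receptor MET in human liver cancer cells. The controls lay between replicate 1 and the other 2 MITF overexpression libraries. Here the log2 fold change was -0.093 ± 0.30 with an adjusted p of 0.871 by edgeR, and its sign turned with total-count scaling, at 0.052. Without replicate 1 it was -0.55.

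Within each library, miR-199a-5p made up a larger share of the miR-199 5p reads with MITF overexpression. The share was 35.8% (95% Wilson interval 32.0 to 39.9%), 16.8% (11.0 to 24.8%) and 12.1% (7.67 to 18.5%) with MITF overexpression. In controls it was 3.05% (1.19 to 7.59%), 7.50% (4.34 to 12.7%) and 4.52% (2.31 to 8.66%). All MITF overexpression libraries were above all controls, also with replicate 1 left aside, although the intervals of MITF overexpression replicates 2 and 3 reach into that of control replicate 2, and that of replicate 3 also into that of control replicate 3. The share was given no test. The 3 miR-199 rows hold fractions of reads. MiR-199a-5p and miR-199b-5p have the same fraction in 6 of 6 libraries within 0.01 reads, so reads were split between rows. The fractions do not show how many, and the share was not corrected for them. In controls, miR-199a-5p held only 4, 12 and 8 rounded reads.

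**Figure D3:**
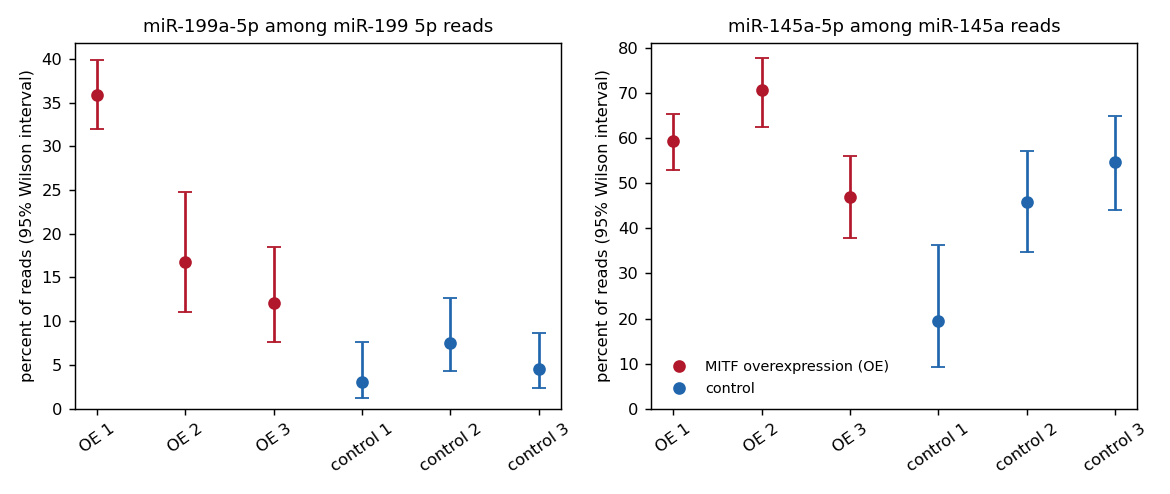
Percent of reads, with 95% Wilson intervals, in each MITF overexpression library (red, left) and control library (blue, right). The share of miR-199a-5p among miR-199 5p reads is 12.1 to 35.8% with MITF overexpression and 3.05 to 7.50% in controls, while that of miR-145a-5p among miR-145a reads overlaps between the groups.

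The ratio of 3p to 5p reads of miR-199 was lower in every MITF overexpression library than in every control. The log2 ratio of miR-199b-3p to miR-199b-5p reads was 0.80, 0.99 and 1.08 with MITF overexpression and 1.23, 1.22 and 1.58 in controls. The groups did not overlap, and the difference of -0.39 gave a two-sided exact permutation p of 0.1, the smallest possible here. Since the 3p row holds both microRNAs, the ratio to the sum of both 5p rows was added after the data were seen. It gave -0.68, with the same p of 0.1 by the exact permutation test, a shift over 1.5 times that with miR-199b-5p alone. MiR-199b-3p had 4.58, 3.35 and 3.03 reads per read of miR-214-3p with MITF overexpression and 11.1, 14.4 and 15.3 in controls, again without overlap. Summed over 4 rows, miR-199 and miR-214 were at 3011, 1208 and 1435 CPM with MITF overexpression and 1497, 1379 and 1617 CPM in controls. In this sum replicate 1 was high, replicate 2 was below all controls, and the groups overlapped.

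Each read is one whole small RNA, so levels can be ordered without a length correction, although ligation efficiency differs between sequences. With MITF overexpression the mean CPM went down in the order miR-143-3p (5907 ± 490), miR-199b-3p (942 ± 423), miR-199b-5p (500 ± 277), miR-145a-5p (264 ± 96.7), miR-214-3p (252 ± 60.5), miR-199a-5p (190 ± 231) and miR-145a-3p (175 ± 43.6). In controls the order was miR-143-3p (4436 ± 428), miR-199b-3p (1008 ± 124), miR-199b-5p (394 ± 18.3), miR-145a-3p (89.7 ± 10.5), miR-214-3p (75.1 ± 12.9), miR-145a-5p (69.8 ± 44.4) and miR-199a-5p (20.8 ± 9.41), each with its SD over 3 libraries. Neighbours from miR-145a-3p down overlapped between libraries in controls, while miR-143-3p, miR-199b-3p and miR-199b-5p were apart from each other and from the rest. With MITF overexpression only miR-143-3p was apart from its neighbour, and every later pair of neighbours overlapped across libraries, although within each library miR-199b-3p was above miR-199b-5p.

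Of other microRNAs of fibroblasts and mesenchyme, a list of 16 names with 27 rows, 19 rows were tested, and not every name had a tested row. Of the 19, 1 rose and 3 fell, and the median log2 fold change was -0.30. Over all 441 tested rows, edgeR called 9.98% higher and 5.22% lower. DESeq2 called 8 of the 19 and 110 of all 441 rows, against 4 and 67 by edgeR. Like the members, this list and the lists below were chosen with earlier results of these data known. MiR-22-3p rose with a log2 fold change of 1.23, while miR-21a-5p, a growth-linked microRNA of many cultured cells, miR-140-5p of cartilage and miR-152-3p had -1.68, -1.52 and -0.87 and fell. Their adjusted p by edgeR was 0.0446, 0.0189, 0.0221 and 0.0226. The summed level of the list was 77199 to 104775 CPM with MITF overexpression and 135097 to 169159 CPM in controls. The largest drops in mean CPM were in miR-21a-5p and miR-27b-3p. MiR-21a-5p was at 14812 CPM with MITF overexpression and 47404 CPM in controls. MiR-27b-3p was at 16254 and 26955 CPM and was not called (adjusted p = 0.0690 by edgeR). Of 8 muscle names, miR-1b, miR-133b and miR-208a had no row, and the single tested row, miR-499-5p, did not pass (adjusted p = 0.919 by edgeR).

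Of the blood cell markers, 4 of 6 tested rows rose and none fell, against 9.98% called higher and 5.22% called lower over all tested rows. The blood list had a median log2 fold change of 1.44. It summed to 4783 to 8696 CPM with MITF overexpression and 1644 to 2563 CPM in controls. MiR-451a and miR-144-3p of red blood cells had log2 fold changes of 1.78 and 1.69, and miR-142a-5p and miR-486b-5p had 1.53 and 1.16, with adjusted p of 0.0200, 0.0215, 0.0200 and 0.0215 by edgeR. MiR-486a and miR-142b had no row. The sum of endothelial miR-126a was 9080, 1825 and 2926 CPM with MITF overexpression and 2233, 2294 and 2409 CPM in controls, and 0 of 2 rows passed edgeR's test, 1 with an unadjusted p under 0.05, or DESeq2's. Of 6 epithelial names with rows, 2 rows were tested and 0 passed edgeR's test, DESeq2's or an unadjusted p under 0.05, with sums of 58.5 to 315 CPM with MITF overexpression and 51.9 to 141 CPM in controls, and miR-141 had no row. The part of these cell types in the members' results was not tested.

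The rows whose log2 CPM followed the members most closely over the 6 libraries were taken from 278 other mouse-named rows, by Pearson's r, as a description. For miR-214-3p they were miR-335-5p (r = 0.96), miR-130b-5p (0.93) and miR-409-3p (0.92). For miR-143-3p they were miR-409-3p (0.93), mir-5098-p3 (0.91) and miR-339-5p (0.90), and for miR-145a-5p they were miR-409-5p (0.995), miR-1249-3p (0.99) and miR-709 (0.98). For miR-199a-5p they were miR-22-3p (0.98), miR-144-5p (0.94) and miR-122-5p (0.94), rows with their highest level in MITF overexpression replicate 1. For miR-199b-3p they were miR-15b-5p (0.91), miR-155-5p (0.88) and miR-300-3p (0.87). Among the members, miR-143-3p and miR-214-3p followed each other most closely (r = 0.97), and miR-199b-3p had an r of 0.053 with miR-143-3p and -0.011 with miR-214-3p. These points share libraries and scaling, a difference between the groups enters r, and with 6 points a high r is easily reached. Some of the rows also reach the floor. MiR-409-5p and miR-1249-3p were at 0 CPM in control replicate 1, and miR-409-3p was at 0 CPM in control replicates 2 and 3.

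In the authors' deposited table the unadjusted p was 0.0229 for miR-143-3p, 0.0324 for miR-214-3p, 0.0410 for miR-145a-5p, 0.0677 for miR-145a-3p and 0.324 for miR-199a-5p. It was 0.537 for miR-199b-5p and 0.865 for miR-199b-3p.

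**Figure D4:**
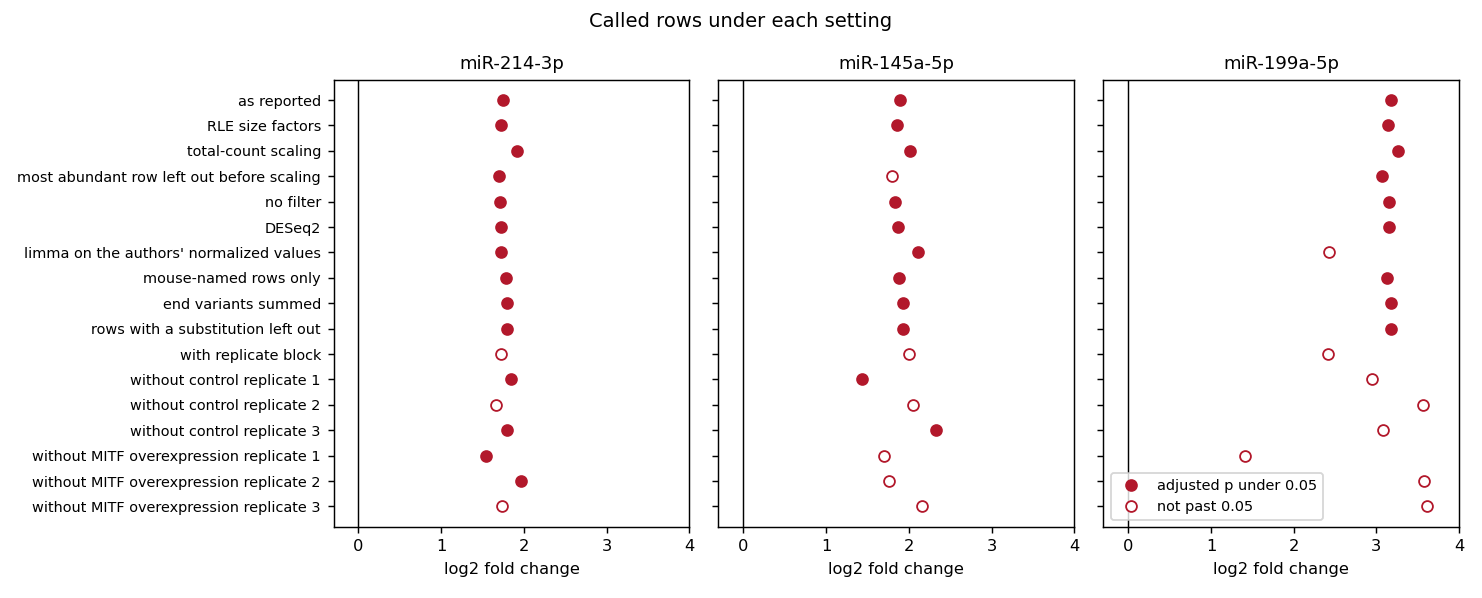
Log2 fold change (x axis) of the 3 called rows, one panel each, under every alternative setting (y axis), filled where the adjusted p is under 0.05. All values stay above 0, in rows whose groups did not overlap. Open points mark the settings in which a row was no longer called. For miR-199a-5p these include the loss of any single library, and its value is lowest, at 1.41, without MITF overexpression replicate 1.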

How the data were processed

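Small RNA libraries of 3 MITF overexpression and 3 control samples were compared. Per the file headers, the authors deposited estimated counts of reads per sequence row and library, and normalized values, a signal obtained by dividing each library's estimated counts by a single factor. An unadjusted p-value per row comes from the same deposited table. The build was mm9, per the submitters' processing notes. The names of the aligner and counter were not given in the sources used here. A second deposited table, of read classes, was not used.

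After rounding, edgeR 4.0.16 (R 4.3.3) was fitted to the 6 libraries with 1 term, the group (TMM, filterByExpr with a minimum count of 10, quasi-likelihood test). Benjamini-Hochberg adjustment ran over all 441 tested rows, with a threshold of 0.05. DESeq2 1.42.0 was an alternative, as was limma 3.58.1 on log2 of the normalized value plus 1. Log2 CPM used a prior count of 2, and arm ratios a pseudocount of 0.5 reads. The edgeR step was tested on simulated counts. All tested member rows, list members that were called, and the 3 rows most like each member were named. The members and lists were chosen with earlier results of these data known.

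Libraries with the same replicate number did not deviate together, with correlations of -0.048 to 0.042, so the numbers were not taken as pairs.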

Additional observations from a re-analysis of the deposited data

Results flagged for a closer look

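MiR-143-5p was not tested because of its low counts, yet replicate 1 of MITF overexpression held 27 reads of it and each control library held 0, so it stood above the controls outside the tested rows. It also had 0 reads in MITF overexpression replicates 2 and 3.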

How the results depend on the processing

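The count of member rows that rose was 2 to 4, against 3 as reported, under 9 other scalings, filters, tests and row choices, and no member fell under any of them. Leaving out a library gave 0 to 2 such rows, and 0 to 41 higher and 0 to 23 lower rows of any kind, against 44 and 23. With the replicate block, 1 row of any kind was higher, 1 was lower and 0 members rose (128 rows had an unadjusted p under 0.05 by edgeR). Same-numbered libraries did not pair, since only 2 of 6 correlated best with their own number. DESeq2 gave 67 higher and 43 lower rows, total-count scaling 15 lower rows, and mouse-named rows alone 26 higher rows. The higher share of all calls was 65.7%, 80.5% with total-count scaling and 53.1% among mouse-named rows alone. The log2 fold change of miR-199b-3p changed sign with total-count scaling (0.052) and without control replicate 3 or MITF overexpression replicate 2 or 3, and that of miR-199b-5p without MITF overexpression replicate 1. With a library left out they ran from -0.55 to 0.15 and from -0.23 to 0.61. The cause was not tested. Both arm ratios kept their sign in the 7 and 8 alternatives that could move their value, between -1.64 and -0.52 for miR-145a and between -0.68 and -0.27 for miR-199b. For miR-199b the groups did not overlap, so leaving out a library could not have turned the sign. Control levels of miR-199a-5p rest on 4 to 12 reads, which limits its fold change.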
